A study of Mus musculus with 12 samples.

Results

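The 9 genes described here encode the core of the angiotensin and endothelin systems: Agt, Ace, Agtr1a, Agtr2, Mme, Edn1, Edn3, Ednra and Ece1. They were taken by symbol from the 33641 gene symbols of the authors' deposited table of TPM, transcript abundance per transcript length scaled to a fixed library total, after the transcripts of each symbol were summed. The tests took genes at 1 TPM or more in 3 or more of the 12 hearts, which held for 8 of the 9 genes and not for Agtr2. Edn3 reached 1 TPM in 5 hearts, all of them infarcted, so that it entered the tests through the groups in which it is high.

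RNA came from the myocardium of 12 wild-type male C57BL/6 mice, 3 in each of 4 groups, about 10 weeks old at injection and about 16 weeks old per the sample labels. The animals had sham surgery or surgery for myocardial infarction (MI). From 2 weeks after the operation they received vehicle or prednisone, a synthetic glucocorticoid, as weekly intraperitoneal injections of 1 mg/kg at lights-on for 6 weeks, and the heart was sampled 24 hours after the last dose. The groups were sham with vehicle, sham with prednisone, MI with vehicle and MI with prednisone, with no transgene in any of them, and the region of the heart that was sampled is not given in the sources used here.

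Angiotensinogen is cut by renin to angiotensin I, from which angiotensin-converting enzyme (ACE) removes a dipeptide to give angiotensin II, a vasoconstrictor that acts mainly through the AT1 receptor. Endothelins are made as longer precursors, trimmed by endothelin-converting enzyme, and act on the ETA and ETB receptors, of which ETA mediates constriction of vascular smooth muscle. In the heart both systems are known for their part in blood pressure control, hypertrophy and fibrosis after injury, and several of their peptides are broken down by neprilysin.

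Summed TPM of 8 cardiomyocyte markers lay between 27829 and 47778, and none of these markers was below 1 TPM in all hearts. The number of genes at 1 TPM or more ran from 11690 to 12772 in 11 libraries and was 14307 in MI vehicle replicate 3, and mitochondrial transcripts took 21.6% to 42.0% of the TPM. TPM are shares of a library, and the log2 change of the median tested gene was 0.39 for MI against sham under vehicle, -0.06 for the same comparison under prednisone, -0.41 for prednisone against vehicle in MI, and 0.07 for prednisone against vehicle in sham hearts. Changes below are therefore given on the log2(TPM + 1) scale as deposited and, where it matters, after median-ratio rescaling of the libraries. In bulk tissue, fewer cells of a type and less RNA per cell cannot be told apart.

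The peptide precursors are described in the order of the pathway. The stretches of their transcripts that encode the active peptides are shown because they identify what each precursor carries. They were taken from the GENCODE M21 transcripts of GRCm38. For Agt the codons of angiotensin I are shown, with the codons of the dipeptide that ACE removes in capitals; for Edn1 and Edn3 the 21 codons of the mature endothelins are shown, with the 4 cysteine codons in capitals.
Agt: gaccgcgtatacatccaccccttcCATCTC
Edn1: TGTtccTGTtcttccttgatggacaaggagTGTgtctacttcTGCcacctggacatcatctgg
Edn3: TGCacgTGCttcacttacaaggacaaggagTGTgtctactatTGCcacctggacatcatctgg
The encoded endothelins shared 15 of 21 residues and all 4 cysteines, and their coding stretches shared 50 of 63 bases, within precursors of 202 residues for Edn1 and 214 residues for Edn3.

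Agt, the precursor of all angiotensins (chromosome 8, 124556534 to 124569706, minus strand, GRCm38), was low in all 4 groups. Its values were 1.40, 2.24 and 1.30 TPM in sham vehicle hearts, 1.55, 1.89 and 1.60 TPM in sham prednisone hearts, 2.71, 1.70 and 3.38 TPM in MI vehicle hearts, and 1.65, 2.78 and 1.29 TPM in MI prednisone hearts. All groups overlapped, and no comparison of Agt passed the test. Its log2 change was 0.43 for MI against sham under vehicle (SE 0.24, limma adjusted p = 0.173), next to the change of the median gene.

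Edn1, the endothelin made mainly by endothelial cells (chromosome 13, 42301476 to 42307990, plus strand), was higher after infarction in the vehicle mice. Its values were 1.55, 1.52 and 1.17 TPM in sham vehicle hearts and 2.35, 4.14 and 5.86 TPM in MI vehicle hearts. Prednisone-treated mice had 1.64, 1.35 and 2.23 TPM after sham surgery and 2.89, 2.47 and 1.75 TPM after infarction. The vehicle groups did not overlap, whereas the MI prednisone hearts overlapped both the sham prednisone and the MI vehicle hearts. The rise under vehicle was 1.03 on the log2 scale (SE 0.25, limma adjusted p = 0.0255) and 0.69 after rescaling (adjusted p = 0.0465). The limma adjusted p stayed under the threshold in 1 of 6 fits that each left out 1 heart of the comparison, with a log2 change of 0.79 and an adjusted p of 0.0569 without MI vehicle replicate 3. The difference between prednisone and vehicle in MI hearts was -0.56 (SE 0.25, limma adjusted p = 0.0983), and it passed the test without MI vehicle replicate 1 (log2 change -0.83, adjusted p = 0.0116).

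Edn3, an endothelin that binds preferentially to the ETB receptor (chromosome 2, 174760619 to 174784042, plus strand), was near the lower limit of the measurement. Sham hearts had 0.28, 0.58 and 0.45 TPM with vehicle and 0.48, 0.47 and 0.84 TPM with prednisone. MI hearts had 1.29, 1.65 and 1.78 TPM with vehicle and 0.91, 1.11 and 1.16 TPM with prednisone. Each of the 6 infarcted hearts was above each of the 6 sham hearts, and within infarction the vehicle hearts were all above the prednisone hearts. Since no sham heart reached 1 TPM, Edn3 entered the fit only because it was high after infarction, and its differences between MI and sham are given as a description with no test. They were 0.84 under vehicle (SE 0.17), 0.61 after rescaling, and 0.37 under prednisone (SE 0.17), on the log2(TPM + 1) scale, which understates the change of so low a gene. Between prednisone and vehicle in MI the difference was -0.32 (SE 0.17, limma adjusted p = 0.162). The MI vehicle hearts were among those that brought Edn3 past the filter, so this value too is a description.

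**Figure D1:**
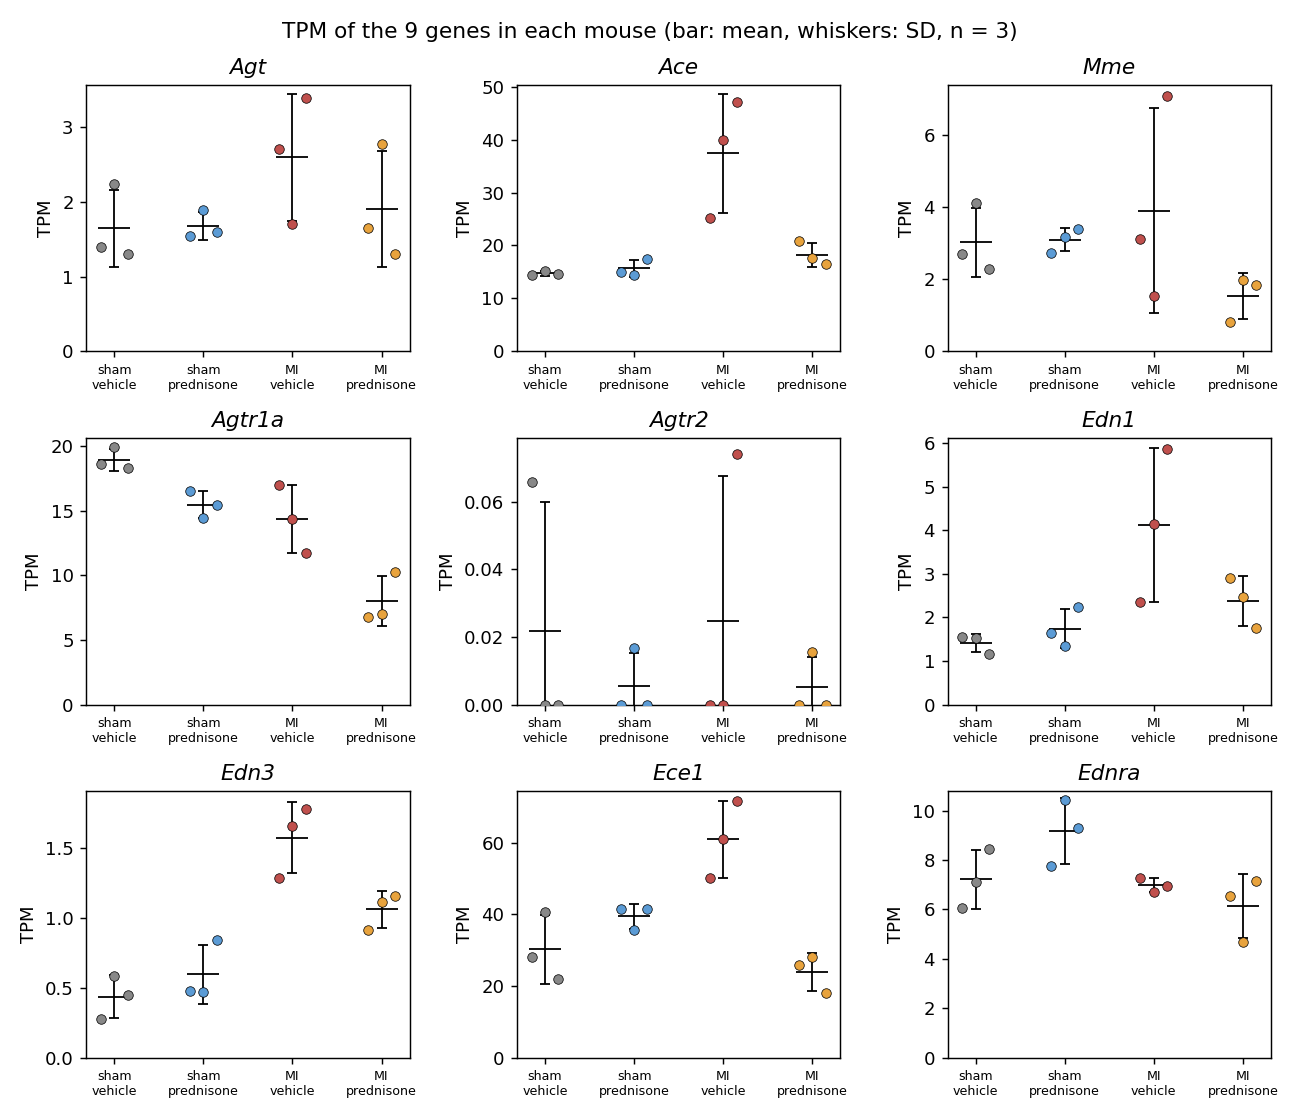
TPM of each of the 9 genes (vertical axes, linear and starting at 0) in the 3 mice of each group (points), with the mean and SD as a bar and whiskers. Ace, Edn1, Edn3 and Ece1 are highest in the MI vehicle hearts, Agtr1a is lowest in the MI prednisone hearts at 6.78 to 10.26 TPM, and Agtr2 does not exceed 0.07 TPM in any heart.

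Ace, the converting enzyme for angiotensin I and also an inactivator of bradykinin (chromosome 11, 105967945 to 105989964, plus strand), lay between 14.35 and 20.77 TPM in 9 hearts and higher in the other 3. Its values were 14.35, 15.27 and 14.57 TPM in sham vehicle hearts and 15.06, 14.52 and 17.46 TPM in sham prednisone hearts. MI vehicle hearts had 25.18, 39.87 and 47.14 TPM, and MI prednisone hearts had 20.77, 17.58 and 16.43 TPM. The order of the group means was 14.7 ± 0.484 in sham vehicle, 15.7 ± 1.56 in sham prednisone, 18.3 ± 2.25 in MI prednisone and 37.4 ± 11.2 TPM in MI vehicle (SD, n = 3). Neighbours among the lower 3 groups overlapped, but the MI prednisone hearts were all above the sham vehicle hearts. The MI vehicle hearts were all above every other heart. Ace rose after infarction under vehicle by 1.24 on the log2 scale (SE 0.19, limma adjusted p = 0.0068) and by 0.80 after rescaling (adjusted p = 0.0231). This call held in each of the 6 fits that left out 1 heart, with log2 changes of 1.06 to 1.496.

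In prednisone-treated mice the difference in Ace between MI and sham was 0.21 (SE 0.19, limma adjusted p = 0.514) and 0.29 after rescaling (adjusted p = 0.144). The rescaled values were 23.36, 17.80 and 18.89 TPM in MI prednisone hearts, above those of all sham hearts, which reached at most 17.04 TPM. Within infarction Ace was lower with prednisone than with vehicle, by -0.96 on the log2 scale (SE 0.19, limma adjusted p = 0.0042) and by -0.51 after rescaling (adjusted p = 0.0213). That call also held in all 6 fits with 1 heart left out. The prednisone effect on Ace differed between infarcted and sham hearts, with an interaction of -1.04 (SE 0.27, limma adjusted p = 0.0244). After rescaling the interaction was -0.51 and missed the threshold (adjusted p = 0.115), and it also missed it in 5 of the 12 fits with 1 heart left out, those without sham vehicle replicate 1 or 3, sham prednisone replicate 1 or 3, or MI prednisone replicate 2, with an adjusted p of up to 0.0642.

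Ece1, the protease that trims big endothelins to their active form (chromosome 4, 137862237 to 137965229, plus strand), had the highest mean TPM of the 9 genes, 38.7 TPM over all hearts. Its values were 28.22, 40.75 and 21.84 TPM in sham vehicle hearts and 41.52, 35.51 and 41.59 TPM in sham prednisone hearts. MI vehicle hearts had 50.11, 60.97 and 71.62 TPM, and MI prednisone hearts had 25.96, 28.04 and 17.96 TPM. The MI vehicle hearts were thus above every other heart, and the MI prednisone hearts were below every sham prednisone heart and overlapped the sham vehicle hearts. Ece1 rose after infarction under vehicle by 1.02 (SE 0.23, limma adjusted p = 0.0196), but by 0.57 after rescaling (adjusted p = 0.0733). The call was lost without sham vehicle replicate 1, sham vehicle replicate 3 or MI vehicle replicate 3, where the adjusted p reached 0.0887.

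The lower Ece1 level with prednisone in infarcted hearts was the steadiest change of the enzyme. It was -1.32 on the log2 scale (SE 0.23, limma adjusted p = 0.00213) and -0.86 after rescaling (adjusted p = 0.00639), and it stayed called in all 6 fits with 1 heart left out. In sham hearts the difference between prednisone and vehicle was 0.42 (SE 0.23, limma adjusted p = 1), and the interaction was -1.73 (SE 0.32, adjusted p = 0.00886). The interaction was -1.20 after rescaling (adjusted p = 0.0242) and held in all 12 fits with 1 heart left out. Under prednisone the difference between MI and sham was -0.72 (SE 0.23, limma adjusted p = 0.051), which passed the test after rescaling (log2 change -0.63, adjusted p = 0.0247). The 4816-base transcript of Ece1, described below, differed by -0.16 in that comparison (SE 0.19, limma adjusted p = 0.611).

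Agtr1a, the main AT1 receptor gene of the mouse (chromosome 13, 30336441 to 30382867, plus strand), was lowest in infarcted hearts with prednisone. Sham vehicle hearts had 18.57, 19.91 and 18.28 TPM and sham prednisone hearts had 16.49, 14.46 and 15.44 TPM. MI vehicle hearts had 16.98, 14.36 and 11.74 TPM and MI prednisone hearts had 6.78, 6.98 and 10.26 TPM. The sham vehicle hearts were all above the hearts of the other 3 groups, the MI prednisone hearts were all below them, and the groups between, sham prednisone and MI vehicle, overlapped. The means were 18.9 ± 0.869 in sham vehicle, 15.5 ± 1.02 in sham prednisone, 14.4 ± 2.62 in MI vehicle and 8.004 ± 1.96 TPM in MI prednisone (SD, n = 3).

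Under prednisone Agtr1a fell after infarction by 0.89 on the log2 scale (SE 0.16, limma adjusted p = 0.00521), by 0.81 after rescaling (adjusted p = 0.0365), and with an adjusted p of at most 0.0304 in the 6 fits with 1 heart left out. Under vehicle the difference was -0.39 (SE 0.16, limma adjusted p = 0.101), in a comparison in which the median gene went the other way, and -0.81 after rescaling (adjusted p = 0.0731). Agtr1a was lower with prednisone than with vehicle in infarcted hearts by -0.78 on the log2 scale (SE 0.16, limma adjusted p = 0.00515), but this became -0.36 after rescaling and was no longer called (adjusted p = 0.307). In sham hearts the values did not overlap between treatments, yet the difference of -0.28 did not pass (SE 0.16, limma adjusted p = 1). The interaction was -0.50 (SE 0.23, limma adjusted p = 0.136), so that a different prednisone effect on Agtr1a in infarcted and sham hearts was not shown.

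Agtr2, the AT2 receptor gene (chromosome X, 21484544 to 21489164, plus strand), was listed at 0 in 8 of 12 hearts. The other 4 hearts were sham vehicle replicate 1 and MI vehicle replicate 3, at 0.07 TPM each, and sham prednisone replicate 2 and MI prednisone replicate 2, at 0.02 TPM each. It was not tested. Ednra, the ETA receptor gene of vascular smooth muscle and cardiomyocytes (chromosome 8, 77663031 to 77724464, minus strand), had 6.07, 7.13 and 8.46 TPM in sham vehicle hearts and 7.77, 10.42 and 9.30 TPM in sham prednisone hearts. It had 7.28, 6.72 and 6.97 TPM in MI vehicle hearts and 6.56, 4.70 and 7.16 TPM in MI prednisone hearts. The sham prednisone hearts were all above the hearts of both MI groups, and the MI vehicle hearts overlapped the sham vehicle and the MI prednisone hearts. No comparison of Ednra passed the test: the difference between MI and sham was -0.03 under vehicle (SE 0.17, limma adjusted p = 0.883) and -0.52 under prednisone (SE 0.17, adjusted p = 0.0567). The latter passed in 1 of the 6 fits with 1 heart left out, with an adjusted p of 0.0365. Rescaling turned the sign of the difference between prednisone and vehicle in MI hearts, from -0.18 to 0.22, with neither called.

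Mme, which encodes neprilysin, the peptidase that degrades natriuretic peptides, bradykinin and endothelin (chromosome 3, 63241537 to 63386030, plus strand), had its widest spread within the MI vehicle group. Sham hearts had 2.71, 4.11 and 2.28 TPM with vehicle and 2.75, 3.19 and 3.39 TPM with prednisone. MI vehicle hearts had 3.12, 1.54 and 7.09 TPM, and MI prednisone hearts had 0.82, 1.98 and 1.84 TPM. The MI prednisone hearts were all below the sham prednisone hearts and overlapped the MI vehicle hearts through MI vehicle replicate 2. The difference between prednisone and vehicle in MI was -0.82 (SE 0.36, limma adjusted p = 0.0927), and without MI vehicle replicate 2 it was -1.21 and passed (adjusted p = 0.0166). The difference between MI and sham was 0.15 under vehicle, -0.21 after rescaling, and -0.72 under prednisone (SE 0.36, limma adjusted p = 0.206).

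**Figure D2:**
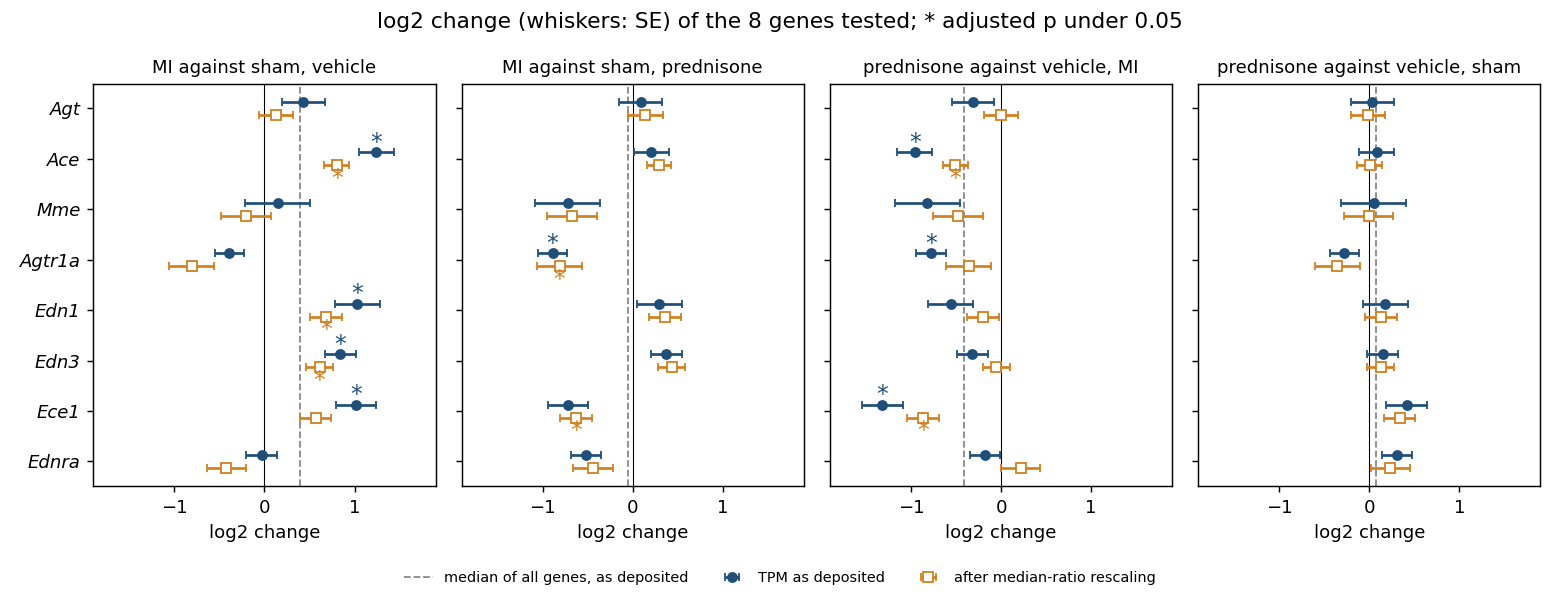
log2 change (horizontal axis) of the 8 tested genes in 4 comparisons, as deposited (filled circles) and after median-ratio rescaling (open squares), with SE as whiskers, an asterisk for an adjusted p under 0.05 and a dashed line at the median of all genes. Ace, Edn1, Edn3 and Ece1 lie to the right of the dashed line for MI against sham under vehicle, and no gene has an asterisk for prednisone against vehicle in sham hearts; the asterisks of Edn3 carry no weight because it passed the filter through infarcted hearts.

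The counts of the tested genes read as follows against all 13158 tested genes, with Edn3 left out of the counts for MI against sham because of how it passed the filter. For MI against sham under vehicle, 3 of 7 were called and all 3, Ace, Edn1 and Ece1, were higher, where 16.0% of all genes were called and 15.1% were called higher. After rescaling the count was 2 of 7, where 6.46% of all genes were called. The MI and sham hearts did not overlap for these 3 genes, as for 40.8% of all genes in that direction, nor for Agtr1a, lower, as for 4.17%. The count of 3 was 1 without sham vehicle replicate 1, sham vehicle replicate 3 or MI vehicle replicate 3. For MI against sham under prednisone, 1 of 7 was called, Agtr1a, lower, where 16.8% of all genes were called and 14.1% were called lower. Without MI prednisone replicate 3 the count was 2. After rescaling it was also 2, Agtr1a and Ece1, where 14.6% of all genes were called lower. The groups did not overlap for Agtr1a, Mme, Ednra and Ece1, lower, as for 32.2% of all genes.

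For prednisone against vehicle in MI hearts, 3 of 8 were called, Ace, Ece1 and Agtr1a, all lower, where 37.4% of all genes were called and 34.9% were called lower. A share of 3 in 8 is near that background. After rescaling 2 of 8 were called, Ace and Ece1, where 13.8% of all genes were called lower. The groups did not overlap for Ace, Ece1, Agtr1a and Edn3, all lower, as for 42.6% of all genes in that direction. Edn3 passed the filter through infarcted hearts, the MI vehicle hearts among them, so its place here is a description. Without Edn3, 3 of 7 were called in this comparison and 2 of 7 for the interaction. For prednisone against vehicle in sham hearts, limma called 0 of 8, where 0.114% of all genes were called, and no other tool was run. An unadjusted p under 0.05 was found for 0 of 8 in sham hearts, beside 3.56% of all genes. Agtr1a was the single gene of the 8 without overlap there, lower with prednisone, as 2.58% of all genes were. For the interaction, 2 of 8 were called lower, Ace and Ece1, where 21.3% of all genes were called and 20.7% were called lower. After rescaling only Ece1 was called, where 8.67% of all genes were. For MI against sham the median log2 change of the 7 genes was 0.43 under vehicle and -0.52 under prednisone, beside 0.39 and -0.06 for all genes. For the 8 genes it was -0.67 for prednisone in MI, 0.12 for prednisone in sham and -0.62 for the interaction, beside -0.41, 0.07 and -0.48 for all genes. The comparisons share hearts, since the MI vehicle hearts enter both the comparison with sham and that with prednisone, and their values are therefore given side by side without a measure of likeness.

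Ace is known for a pair of gene products made from different start sites: a long somatic enzyme with 2 catalytic domains and a short germinal enzyme with 1, which is normally made in the testis from a promoter inside the gene. Both were listed in the table. The long transcript ENSMUST00000001963.13 has 4906 bases and 25 exons and encodes 1312 residues with 2 copies of the zinc-binding motif His-Glu-X-X-His. The short transcript ENSMUST00000001964.7 has 2418 bases and 14 exons, starts 32.99% of the way into the gene, and encodes 732 residues with 1 copy. The bases before both starts are printed because the transcripts that begin there moved in opposite directions, as RefSeq gives them for GRCm38.p6, plus strand, with matches to GGGCGG and TATAAA on either strand in capitals.
Ace long start, chr11:105967828-105967947: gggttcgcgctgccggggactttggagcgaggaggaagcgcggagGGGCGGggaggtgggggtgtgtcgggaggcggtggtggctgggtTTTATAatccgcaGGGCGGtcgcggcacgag
Ace short start, chr11:105975069-105975188: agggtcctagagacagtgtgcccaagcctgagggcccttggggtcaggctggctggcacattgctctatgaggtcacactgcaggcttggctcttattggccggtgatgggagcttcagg
Over 250 bases before each start, the long start held 4 matches to GGGCGG and 1 to TATAAA, and the short start held none of either, nor of AGAACA or TGACG. Only exact matches on either strand were counted, so near variants of these motifs may be present. Among 32851 RefSeq promoters of that length, 32.7% held GGGCGG, 12.4% TATAAA, 16.1% AGAACA and 17.8% TGACG. A promoter entry was found for 8 of the 9 genes, and the full palindromic glucocorticoid response element was in none of them and in 0.009% of all promoters. The second window lies after 12 exons of the long transcript and overlaps none of its exons.

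The long Ace transcript had a mean of 9.31 TPM in sham vehicle, 10.2 TPM in sham prednisone, 25.2 TPM in MI vehicle and 9.39 TPM in MI prednisone hearts. It rose after infarction under vehicle by 1.30 (SE 0.21, limma adjusted p = 0.0154 over all transcripts, of which 2.66% were called higher) and was lower with prednisone in MI hearts by -1.29 (SE 0.21, adjusted p = 0.00136). A transcript of 3649 bases that also encodes both motifs, and starts 15.34% of the way into the gene, showed the same pair of changes, 1.09 (SE 0.20, limma adjusted p = 0.0256) and -1.45 (SE 0.20, adjusted p = 0.000688). The mean of the long transcript with MI and prednisone lay between those of the sham groups. The 3649-base transcript had a mean of 3.42 TPM with MI and prednisone, below 4.63 TPM in sham vehicle and 4.33 TPM in sham prednisone hearts. Its difference between MI and sham under prednisone was -0.26 (SE 0.20, limma adjusted p = 0.404).

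The short transcript had 0.83, 0 and 0.93 TPM in sham vehicle hearts, 0.75, 1.35 and 1.22 TPM in sham prednisone hearts, 0, 0.62 and 0.89 TPM in MI vehicle hearts, and 6.91, 5.01 and 4.42 TPM in MI prednisone hearts. The 3 MI prednisone hearts stood apart from all 9 others. The transcript made up 29.5% ± 3.31 of Ace in those hearts, against 4.05% ± 3.52 in sham vehicle, 7.09% ± 2.17 in sham prednisone and 1.14% ± 1.00 in MI vehicle hearts (SD, n = 3). It rose with prednisone in MI hearts by 2.13 (SE 0.31, limma adjusted p = 0.000907), where 5.92% of all 27769 tested transcripts were called higher and 27.1% lower. Its interaction was 1.68 (SE 0.44, limma adjusted p = 0.0265), where 2.87% of transcripts were called higher and 15.8% lower. Under prednisone it was higher in MI than in sham hearts by 1.61 (SE 0.31, limma adjusted p = 0.00458), as 6.75% of transcripts were called. The gene total of Ace in MI prednisone hearts thus held a larger share of a transcript that starts late.

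Late-starting transcripts differed from the others of their genes in the MI prednisone libraries, although not in a single direction. Among genes with at least 2 tested transcripts, 4845 transcripts began after the initial 10% of the gene's span and reached its end, and for prednisone against vehicle in MI their median log2 change was 0.08, with 19.8% called higher and 15.6% lower. The 9312 transcripts that reached both ends had a median of -0.40, with 3.66% called higher and 32.0% lower, and the 4199 that stopped early had a median of -0.53, with 1.83% called higher. Across genes within a library, the level relative to the mean of the sham vehicle hearts was correlated with transcript length. Spearman rho was -0.38, -0.40 and -0.25 in the MI hearts given prednisone. It lay from -0.12 to 0.24 in the remaining 9 libraries, among them the sham vehicle hearts that form the reference. After a correction for length, the log2 change for prednisone against vehicle in MI was -0.33 for Ace (limma adjusted p = 0.13), -0.38 for Agtr1a (adjusted p = 0.319) and -0.77 for Ece1 (adjusted p = 0.0208), so that 1 of the 7 genes with a length was called (Edn1 had none), where 16.4% of all genes with a length were. The same correction left MI against sham under vehicle at 0.83 for Ace (limma adjusted p = 0.0219) and 0.59 for Ece1 (adjusted p = 0.0783), with a difference of 0.42 for Edn3. Edn1, matched without its identifier's version, was at 0.59 (limma adjusted p = 0.0581). Under prednisone it left Agtr1a called at -0.87 (limma adjusted p = 0.0469) and brought Ace past the threshold at 0.52 (adjusted p = 0.0387). Neither interaction passed with it, at -1.10 for Ece1 (limma adjusted p = 0.0595) and -0.31 for Ace (adjusted p = 0.431). The part that uneven coverage of transcripts plays in the values of the short Ace transcript was not tested.

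The make-up of Ece1 differed between groups too. Its 4816-base transcript of 20 exons had a mean of 21.9 TPM in sham vehicle, 23.8 TPM in sham prednisone, 38.0 TPM in MI vehicle and 21.4 TPM in MI prednisone hearts, and it was lower with prednisone in MI by -0.78 (SE 0.19, limma adjusted p = 0.0112). A 728-base transcript was lower by -2.24 (SE 0.24, limma adjusted p = 0.00017) and a 172-base transcript by -2.74 (SE 0.76, adjusted p = 0.0184). Between MI and sham under prednisone the 4816-base transcript differed by -0.16 (SE 0.19, limma adjusted p = 0.611), with overlapping groups. The 728-base transcript was lower there by -1.77 (SE 0.24, limma adjusted p = 0.000693), and the 172-base transcript differed by -2.15 (SE 0.76, adjusted p = 0.0646). The interaction of the 4816-base transcript was -0.90 (SE 0.27, limma adjusted p = 0.0415), beside -1.73 for the gene. The 4816-base transcript took 61.8% ± 4.75 of Ece1 in MI vehicle hearts and 90.4% ± 8.35 in MI prednisone hearts (SD, n = 3). The mean of the 172-base transcript was 15.9 TPM in MI vehicle and 2.11 TPM in MI prednisone hearts, with values of 0 in sham vehicle replicate 3 and MI prednisone replicate 3. The 2199-base transcript of Agtr1a, its main form, was lower with prednisone in MI by -0.73 (SE 0.17, limma adjusted p = 0.00833).

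**Figure D3:**
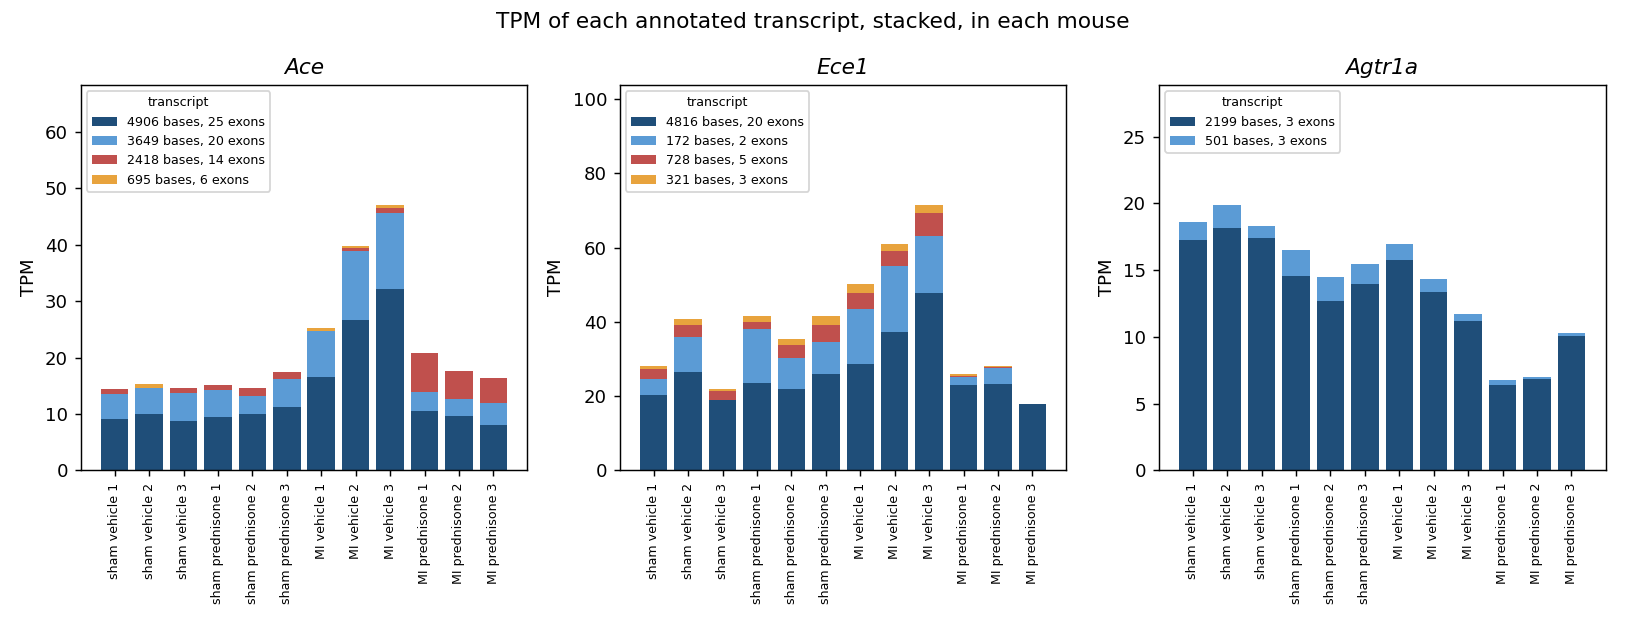
TPM (vertical axes, starting at 0) of each annotated transcript of Ace, Ece1 and Agtr1a, stacked, in each of the 12 mice. The 2418-base Ace transcript reaches 4.42 to 6.91 TPM in the 3 MI prednisone hearts and stays at or below 1.35 TPM in the others, and the 172-base Ece1 transcript is at 0 to 4.19 TPM in the MI prednisone hearts and at 14.8 to 17.7 TPM in the MI vehicle hearts.

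Markers of several cell types moved with the same groups. Summed TPM of 8 fibroblast markers was 412 to 536 in sham vehicle, 444 to 530 in sham prednisone, 874 to 1031 in MI vehicle and 339 to 589 in MI prednisone hearts, with 8 of 8 higher in MI under vehicle (3 of 8 after rescaling) and 6 of 8 lower with prednisone in MI (5 after rescaling). Summed TPM of 6 macrophage markers was 176 to 270, 210 to 280, 431 to 1063 and 201 to 395 in the same order, with 5 of 6 higher and 5 of 6 lower in those comparisons, and 3 of 6 in each after rescaling. For 8 endothelial markers the sum was 268 to 296, 287 to 349, 341 to 441 and 323 to 434, with 6 of 8 higher in MI under vehicle and 0 of 8 after rescaling. With prednisone in MI 3 of the 8 were lower and 1 higher, but after rescaling 0 were lower and 2 higher. Summed TPM of 5 mesothelial markers, with Wt1 among them, was 26.7 to 62.9, 45.1 to 56.9, 81.01 to 155 and 23.97 to 78.96 in that order, with 3 of 5 higher after infarction under vehicle (0 after rescaling) and 4 of 5 lower with prednisone in MI (also 4 after rescaling). In those comparisons 3 of 8 mural cell markers were higher and 4 of 8 lower, and 1 of 5 mast cell markers was lower, all of which were lost after rescaling, while none of 4 adipocyte and 5 red blood cell markers was called. Of 8 ventricular and general cardiomyocyte markers, 2 were lower in MI under vehicle and 4 were higher with prednisone in MI (2 and 6 after rescaling). The summed TPM of 5 atrial markers was 855 to 2512, 1999 to 2709, 2813 to 4122 and 4358 to 6191 in the same order of groups. Nppa alone took 2050 to 3228 TPM in MI vehicle hearts. For MI against sham under vehicle Myl7, Sln, Myl4 and Bmp10 differed by -0.80, -0.78, -0.77 and 0.06, with none called. With prednisone in MI 3 of 5 atrial markers were higher: Myl7 (2.04), Sln (2.03) and Myl4 (1.98), also after rescaling. No marker of these lists was at 0 in all hearts. Their part in the changes of Ace, Ece1, Edn1, Edn3 and Agtr1a was not tested.

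The genes whose pattern over the 12 hearts was closest to a member were found by the root mean square difference of centred log2(TPM + 1) among 8115 genes averaging 5 TPM or more. For Ace these were Efhd2 at 0.107 and Scpep1 at 0.114, where the root mean square of Ace about its own mean was 0.537. Efhd2 had 10.5 to 12.52 TPM in sham vehicle and 16.9 to 40.5 TPM in MI vehicle hearts. For Ece1 they were Sh3d19 at 0.134 and Wt1, a transcription factor gene of the epicardium, at 0.157. For Agtr1a they were Dsg2, a desmosomal cadherin gene, at 0.121 and Ppp2r3a at 0.132; Dsg2 had 6.12, 6.47 and 9.63 TPM in the MI prednisone hearts.

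The other genes of both systems were taken from a list of 69, of which 53 were tested and 37 passed in at least 1 comparison. For MI against sham under vehicle, 15 of 53 were higher and 0 lower, where 15.1% of all genes were higher, and 5 of 53 were higher after rescaling. Both counts include Nox4, which passed the filter mainly through infarcted hearts. Both tested peptide genes rose: Nppb by 2.32 (SE 0.30, limma adjusted p = 0.00505) and Nppa by 1.68 (SE 0.33, adjusted p = 0.0136), the natriuretic peptides that oppose angiotensin II. Of 5 atrial cardiomyocyte markers Nppa was the single one called in that comparison; Myl7, Sln, Myl4 and Bmp10 differed by -0.80, -0.78, -0.77 and 0.06, and the median of the 5 was -0.77. Of 7 receptor genes, 2 rose: Ednrb, the ETB receptor, by 0.66 and Atp6ap2, the prorenin receptor, by 0.84. Neither was called after rescaling, at 0.27 (limma adjusted p = 0.301) and 0.42 (adjusted p = 0.0595). Of 12 peptidases limma called none, with 5 of 12 at an unadjusted p under 0.05, as were 42.2% of all genes.

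Of 32 signalling genes, 11 rose after infarction under vehicle. They were the NADPH oxidase genes Nox4 (1.65, SE 0.22) and Cybb (1.14), the calcineurin inhibitor Rcan1 (1.21), the kinase Prkcd (1.17), the arrestins Arrb1 (0.96) and Arrb2 (0.97), the receptor kinase Grk5 (0.82), Gna13 (0.79), the calcium channel Itpr1 (0.65), Rhoa (0.57) and Plcb4 (0.39). After rescaling 3 of the 32 were called higher, Nox4, Prkcd and Arrb1. Plcb4 moved as the median gene did (0.39) and was at -0.04 after rescaling. Nox4 had a mean of 0.537 TPM in sham vehicle and 3.93 TPM in MI vehicle hearts. Since 1 of 6 sham hearts reached 1 TPM, and no sham vehicle heart exceeded 0.678 TPM, it passed the filter mainly through infarcted hearts. Its rise is therefore a description with no test, although the counts of 11 and 15 include it. The count of 15 was 3 without sham vehicle replicate 1 or 3, 32 without MI vehicle replicate 1 and 9 without MI vehicle replicate 3.

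Under prednisone, MI against sham gave 5 higher and 11 lower of 53, where 2.73% of all genes were higher and 14.1% lower. After rescaling 9 were higher and 13 lower. The 5 that rose were Nppb (1.899), Nppa (1.46), the aminopeptidase Anpep (1.28), Rcan1 (0.80) and the natriuretic peptide receptor Npr2 (0.46). The 11 that fell were Lnpep, the aminopeptidase that binds angiotensin IV (-1.96), the mineralocorticoid receptor Nr3c2 (-0.82), Itpr1 (-0.82), Rock2 (-0.81), Rock1 (-0.80), Prkca (-0.75), Prkce (-0.71), Gna12 (-0.61), the calcineurin subunits Ppp3ca (-0.59) and Ppp3cb (-0.53), and Plcb4 (-0.51). The count of 16 was 9 without sham prednisone replicate 1 and 10 without sham prednisone replicate 2 or MI prednisone replicate 1.

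With prednisone against vehicle in MI hearts, 30 of 53 were lower and 0 higher, where 34.9% of all genes were lower. After rescaling 13 were lower and 3 higher, so that the one-sided split depends on the scale. Of 7 receptor genes, 5 fell: Npr3 (-0.88), Ednrb (-0.85), Atp6ap2 (-0.78), Nr3c2 (-0.73) and Agtrap, which binds the AT1 receptor (-0.57). After rescaling 0 of the 7 were called lower, and 2 were called higher, Npr1 (0.73) and Npr2 (0.76). Of 12 peptidases, 5 fell: Lnpep (-1.92), Cpa3, also 1 of the mast cell markers (-0.95), Prcp (-0.85), Nln (-0.83) and Prep (-0.58). Lnpep, Prcp and Nln stayed called after rescaling. Of 32 signalling genes, 20 fell: Cybb (-1.43), Nox4 (-1.22), Prkca (-1.13), Itpr1 (-1.12), Gna13 (-1.03), Rock1 (-0.998), Jak2 (-0.94), Arrb1 (-0.94), Rock2 (-0.92), Stat3 (-0.92), Itpr2 (-0.92), Ppp3ca (-0.81), Grk5 (-0.72), Rhoa (-0.71), Gnaq (-0.68), Plcb4 (-0.64), Plcb1 (-0.58), Prkce (-0.55), Ppp3cb (-0.55) and Gna12 (-0.45). After rescaling 10 of the 32 were lower and 1, Rcan1, was higher. Gna12 lay next to the median gene (-0.41) and was at -0.0015 after rescaling. The counts of 20 and 30 include Nox4, which passed the filter mainly through infarcted hearts. Its fall is therefore a description with no test.

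In sham hearts limma called 0 of the 53 for prednisone against vehicle, where 0.114% of all genes were called, and no other tool was run. An unadjusted p under 0.05 was found for 4 of the 53, beside 3.56% of all genes. The interaction was called for 21 of 53, all lower, where 20.7% of all genes were lower, and for 5 of 53 after rescaling, where 8.67% of all genes were called. Among the receptors it was called for Ednrb (-0.92, SE 0.19, limma adjusted p = 0.0109) and Npr3 (-1.06, SE 0.30, adjusted p = 0.0324), neither of them after rescaling. Among the peptidases it was called for Lnpep (-2.13) and Nln (-0.80), and the other 17 were signalling genes, from Gna12 (-0.60) to Cybb (-1.55). The counts of 17 and 21 include Nox4 (-1.35), which passed the filter mainly through infarcted hearts, so that its value is a description. The count of 21 was 10 without sham vehicle replicate 1, 9 without sham vehicle replicate 3, 12 without any 1 of the 3 sham prednisone replicates and 11 without MI prednisone replicate 1.

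**Figure D4:**
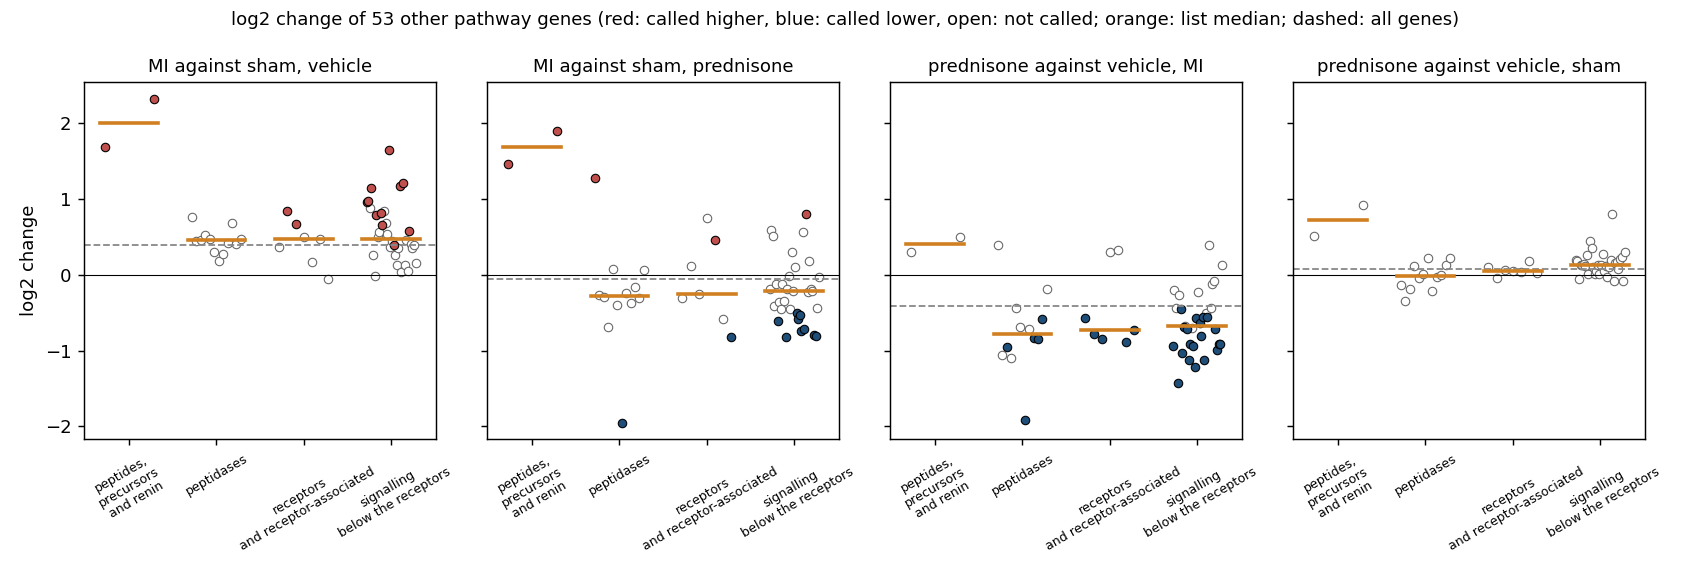
log2 change (vertical axis) of the 53 tested genes of the wider list in 4 comparisons, by role; red points were called higher, blue points lower and open points were not called, orange lines are list medians and the dashed line is the median of all genes. For prednisone against vehicle in MI hearts 30 points are blue and none is red, with the dashed line at -0.41.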

How the data were processed

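RNA-seq was measured in 12 hearts. The values the authors deposited are TPM per transcript, in 105129 rows with a gene symbol each. The submitters' processing notes name Trimmomatic, HISAT2, kallisto and mm10, without versions or roles; the annotation release is not given in the sources used here. TPM keep no depth, so no counting error could be attached.

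Transcripts were summed by symbol and genes at 1 TPM or more in 3 or more of 12 samples were kept (13158). limma 3.58.1 in R 4.3.3 (lmFit, eBayes with an intensity trend) was fitted to log2(TPM + 1) of all 12 samples with 1 mean per group. P-values were Benjamini-Hochberg adjusted within each comparison and called under 0.05. The test was checked on simulated data. An exact test of 3 against 3 mice cannot reach p below 0.1, so none was used for single genes. Lengths and coordinates came from GENCODE M21 (GRCm38); 90.4% of tested genes had a length by versioned identifier.

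The genes, lists and the rule for named genes (all 9 genes, every listed pathway gene called in a comparison with a mean of at least 1 TPM, and the 2 genes closest in pattern to a called gene with a mean of at least 5 TPM) were chosen with earlier results of these data known. Mast cell, mural, mesothelial, adipocyte and red cell markers were also summed. Libraries were rescaled by median ratios, and the length correction subtracted from each library a loess curve (span 0.5) of its deviations on log transcript length. The other alternatives are given at the end.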

Additional observations from a re-analysis of the deposited data

Results flagged for a closer look

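The prednisone effect on Ece1 differed between infarcted and sham hearts by the interaction test: -1.73 on the log2 scale (SE 0.32, limma adjusted p = 0.00886), from a difference of -1.32 in MI hearts and 0.42 in sham hearts. The same test also called Ace, with an interaction of -1.04 (SE 0.27, limma adjusted p = 0.0244), from -0.96 in MI hearts and 0.08 in sham hearts. In this test 21.3% of all genes were called. After rescaling Ece1 held (-1.20, limma adjusted p = 0.0242) and Ace did not (-0.51, adjusted p = 0.115). With length correction neither passed, at -1.10 for Ece1 (limma adjusted p = 0.0595) and -0.31 for Ace (adjusted p = 0.431). The 4816-base transcript of Ece1 had an interaction of -0.90. Within Ace the short transcript had an interaction of 1.68, opposite in sign to the -1.41 of the long transcript.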

How the results depend on the processing

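Each of 40 values, 8 genes in 5 comparisons, was recomputed under alternatives, 710 values in all. Of these, 648 kept their side of the threshold, 49 lost a call, 13 gained one, and no called value reversed. Among the 648 are 50 that changed sign where neither value was called. The 40 values include the differences of Edn3 between MI and sham, whose calls carry no weight, and Edn3 is left out of the counts of system genes that follow. The number of the other 7 tested system genes called for MI against sham under vehicle (3) was 2 with rescaling, no filter or a replicate block. It was 1 with the most abundant transcript, 1 with length correction and 1 with lengths matched without identifier versions (added after seeing the data). It was 0 with only the groups compared, 0 with length correction and the block, and 1 to 4 with 1 heart left out. Under prednisone (1) it was 2 with rescaling, a pseudocount of 0.1, mitochondrial and globin rows removed, or either length correction, 3 with only the groups compared, 0 with length correction and the block, and 1 to 2 with 1 heart left out. For prednisone against vehicle in MI (3) it was 1 with any length correction, with or without the block, and 1 with only the groups compared. For the interaction (2) it was 1 with rescaling, 0 with any length correction, and 1 to 3 with 1 heart left out. The pathway counts were, for MI under vehicle (15), 5 with rescaling, 8 with no filter, 5 with the most abundant transcript, 9 with the replicate block, 5 and 6 with the length corrections, 0 with length correction and the block, 0 with only the groups compared, and 3 to 32 with 1 heart left out; for MI under prednisone (16), 8 and 10 with the length corrections, 5 with the block added, and 9 to 17 with 1 heart left out. For prednisone in MI (30) they were 16 with rescaling, 8 and 10 with the length corrections, 3 with the block added and 5 with only the groups compared; in sham (0), 1 with the most abundant transcript; and for the interaction (21), 5 with rescaling, 1 and 2 with the length corrections, 0 with the block added and 9 to 31 with 1 heart left out. Fitting fewer samples leaves fewer degrees of freedom; otherwise the cause was not tested. Same-numbered mice are different animals, and their deviations correlated at -0.58 to 0.14 over the compared pairs of groups. The labels do not say whether the numbers mark a shared batch, and with 3 mice a group these correlations cannot decide it. The replicate block by itself gave counts of system genes, Edn3 left out, of 2, 1, 3, 0 and 2.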

Other observations

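Of the listed genes too low to test, Edn2, the remaining endothelin gene, was chosen for mention after its values were seen. It was 3.21 TPM in MI prednisone replicate 2, 0.94 TPM in MI vehicle replicate 2 and at most 0.18 TPM in the other 10 hearts. Kng2, a kininogen gene, was also highest in MI prednisone replicate 2, at 1.88 TPM, with 1.06 TPM in MI vehicle replicate 3. Ren1, which encodes renin, stayed at or below 0.31 TPM in all hearts, and Agtr1b, the second AT1 receptor gene of the mouse, at or below 0.05 TPM.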
